A study of Mus musculus with 2 samples.

Results

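The S100 calcium-binding proteins were followed in single-cell RNA sequencing of mouse corneal epithelium. The members were the 9 rows of the deposited count matrix with the symbols S100a4, S100a6, S100a8, S100a9, S100a10, S100a11, S100a13, S100a14 and S100a16, out of 17492 genes. The study compared 1 control with 1 diabetic library of male C57BL/6J mice aged 20 weeks, each a pool of 4 corneas from 2 animals. Diabetic mice had been given streptozotocin once, at 160 mg/kg, which destroys the insulin-making beta cells of the pancreas, and stayed above 250 mg/dL of blood glucose for 12 weeks, as the labels state. Control mice had received the sodium citrate buffer (pH 4.5). The epithelium was lifted enzymatically and dissociated with trypsin, and libraries were made with a droplet kit that reads the 3′ end of polyadenylated RNA and counts each captured molecule once by its unique molecular identifier (UMI).

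S100 proteins are small proteins built of a pair of EF-hand motifs, the loops that hold calcium. Most form dimers, change shape when calcium binds and then attach to partners such as annexins and myosin. Several are also released and act outside the cell through the receptor for advanced glycation end products (RAGE, gene Ager) or Toll-like receptor 4. Most of the genes lie in a cluster on mouse chromosome 3 within the epidermal differentiation complex, next to genes of the cornified surface of skin. S100a8 and S100a9 form calprotectin, the metal-binding antimicrobial protein of neutrophils that stressed epithelia also make.

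All 9 members mapped to chromosome 3 in the GENCODE M21 annotation of GRCm38. A first group held S100a13 (chr3:90514435-90524581), S100a14 (chr3:90526856-90528837), S100a16 (chr3:90537254-90543151), S100a4 (chr3:90603771-90606045), S100a6 (chr3:90612882-90624181) and S100a8 (chr3:90668978-90670035), all on the plus strand, with S100a9 (chr3:90692632-90695721) on the minus strand. S100a8 and S100a9 ended 22596 bases apart. S100a11 (chr3:93520488-93526287) and S100a10 (chr3:93555080-93564643) lay 2824766 bases farther on, both on the plus strand and 28792 bases from each other. Upstream sequences are shown for 3 loci because the results turn on these genes: those of S100a4 and S100a9, the members called higher in diabetic cells below, and the stretch between the starts of S100a13 and S100a1, which begin head to head and whose levels are set side by side below. They come from the RefSeq promoter table of GRCm38.p6, in which 7 of the 9 members were matched. Capitals mark a TATA box (TATAAA) in S100a4 and a C/EBP motif (TTGCNNAA) followed by a GC box (GGGCGG) in S100a9.
S100a4, plus strand, chr3:90603520-90603769: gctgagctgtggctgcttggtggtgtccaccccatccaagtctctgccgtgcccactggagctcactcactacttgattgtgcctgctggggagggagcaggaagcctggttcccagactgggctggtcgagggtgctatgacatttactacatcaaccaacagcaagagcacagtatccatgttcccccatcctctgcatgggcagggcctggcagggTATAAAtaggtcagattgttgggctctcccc
S100a9, minus strand, chr3:90695722-90695971: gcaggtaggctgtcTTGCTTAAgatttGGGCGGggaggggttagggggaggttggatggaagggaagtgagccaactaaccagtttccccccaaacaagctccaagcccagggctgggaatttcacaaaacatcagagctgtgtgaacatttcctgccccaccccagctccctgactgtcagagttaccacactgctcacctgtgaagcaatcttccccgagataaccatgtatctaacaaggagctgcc
S100a1 to S100a13, plus strand, chr3:90514393-90514434: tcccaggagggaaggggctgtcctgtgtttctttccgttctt
The TATA box of S100a4 began 31 bases before the annotated start. Among 32851 promoters of the same 250 bases, 12.4% held TATAAA on either strand. In S100a9 the C/EBP motif began 236 and the GC box 223 bases before the start, and these letters occurred in 9.56% and 32.7% of all promoters. Both windows were also searched on both strands for AP-1 (TGANTCA, in 6.75% of promoters) and STAT (TTCNNNGAA, 7.02%), and these letters were in neither window. S100a1, on the minus strand, and S100a13, on the plus strand, started 42 bases apart, head to head.

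The control library held 9605 cells with 196359192 UMIs and the diabetic library 8203 cells with 171030636 UMIs, with medians of 16487 and 17677 UMIs per cell, and 18 cell barcodes occurred in both. Each cell carried 1 of 8 deposited labels (Conj, Squam, Wing, TAC2, TAC1, Basal, LSC, Immune), whose abbreviations are not explained in the sources used here. Single markers picked from the lists other than the basal one mostly followed the labels in control cells. Gpha2, a limbal gene, was at 2875 CPM (the count of a gene scaled to the UMI total of the same sum) in LSC and at most 119.8 CPM in any other label. Mki67, a proliferation gene, was at 325 CPM in TAC2, Dsg1a, a desmosomal cadherin, at 436 CPM in Wing, and Psca, a surface marker, at 28929 CPM in Squam. Krt19, a conjunctival keratin, was at 3414 CPM in Conj, and Cd74, an antigen presentation gene, at 18527 CPM in Immune. The hemidesmosome gene Itgb4 did not set Basal (162 CPM) apart from TAC1 (173 CPM). The 5 basal markers (Krt14, Krt5, Itgb4, Col17a1 and Krt15) summed to 8671 CPM in control Basal cells. Their sum was 8271 CPM in TAC1, 8876 CPM in Squam, 9128 CPM in TAC2, 17777 CPM in Wing, 21518 CPM in LSC and 35447 CPM in Conj. The 4 wing markers (Dsg1a, Dsc2, Lypd3 and Krt12) summed to 31431 CPM in control Wing, 22267 CPM in Basal and 18880 CPM in TAC1 cells. The 4 S phase markers (Pcna, Rrm2, Tyms and Mcm5) summed to 451 CPM in control TAC1 and 521 CPM in TAC2 cells, so TAC1 was not the highest. Krt12, the corneal keratin, was found outside epithelial labels, at 7411 CPM in the control and 764 CPM in the diabetic Immune cells. Immune values rested on 26 control and 10 diabetic cells. With 1 library per group there was no replicate, no test between groups was possible, and all intervals are 95% intervals of counting error only.

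The 9 members together held 3.86% of all UMIs in control and 3.50% in diabetic cells. Their share was 6.99% and 6.40% in Squam, 6.46% and 5.97% in Conj, 3.66% and 3.36% in Wing, and 1.79% and 2.03% in TAC1. The rule used for a difference was a CPM at least 1.5-fold higher or lower, 50 summed counts as a minimum, and Poisson intervals apart from each other. Over all cells, 1 of 9 members was called higher in the diabetic library, S100a4, and 0 were called lower. By the same rule 5.98% of the 13846 genes measured were called higher and 2.80% lower. Among 63 combinations of a member with an epithelial label, 55 had enough counts, 10 were called higher and 0 lower. The 10 were S100a4 in all 7 epithelial labels and S100a9 in LSC, TAC2 and Conj. Of all genes measured in a label, those called higher were 2.63% in LSC, 2.63% in Basal, 1.70% in TAC1, 2.21% in TAC2, 3.93% in Wing, 1.79% in Squam and 2.52% in Conj. Those called lower were 2.61% in LSC, 2.38% in Basal, 1.52% in TAC1, 1.35% in TAC2, 2.59% in Wing, 7.75% in Squam and 1.95% in Conj.

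**Figure D1:**
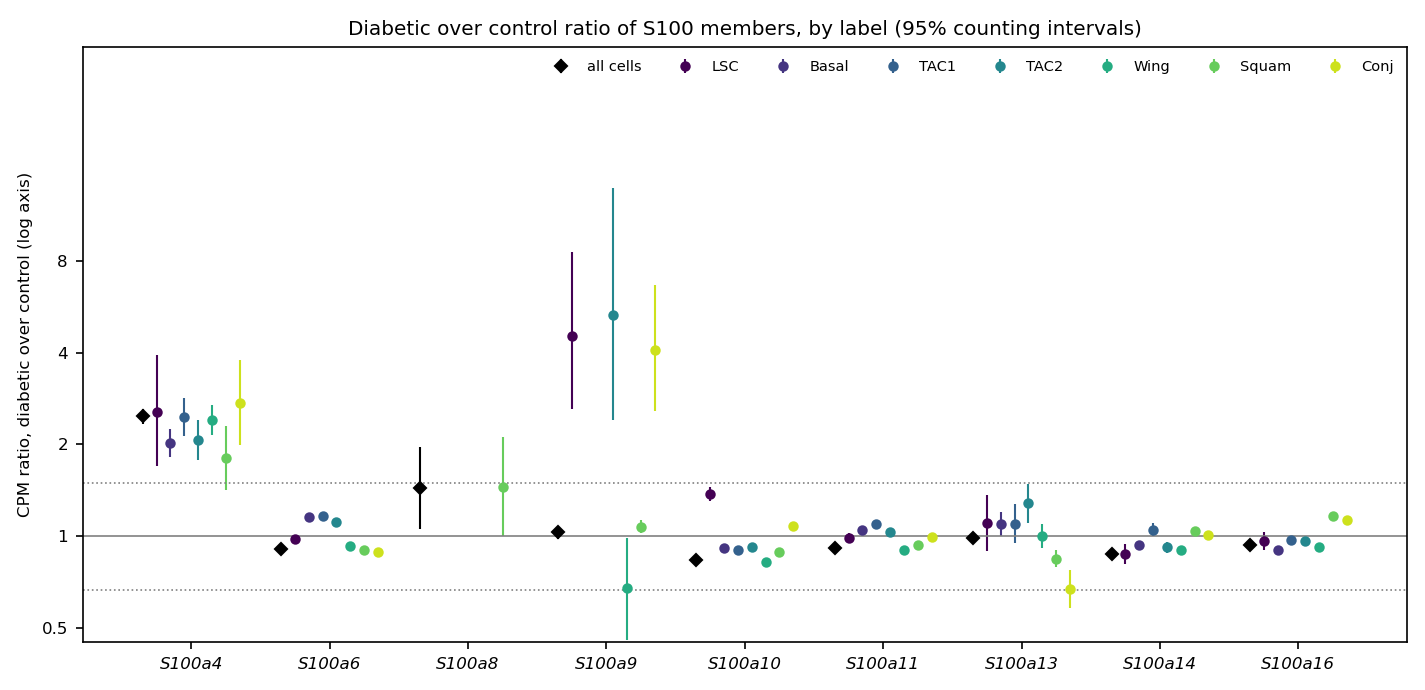
Diabetic over control CPM ratio of each member (log axis) over all cells (diamonds) and in each epithelial label (circles), with 95% counting intervals. Dotted lines mark a fold of 1.5. S100a4 lies between 1.81 and 2.73 in the 7 labels, and S100a9 from 0.679 in Wing to 5.31 in TAC2. Labels with under 50 summed counts are not drawn.

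S100a4, also called metastasin or fibroblast-specific protein, binds the heavy chain of non-muscle myosin and is best known from motile cells, fibroblasts and leukocytes. It had 1750 counts in control and 3773 in diabetic cells. Its level was 8.91 CPM (8.50 to 9.34) in the control and 22.1 CPM (21.4 to 22.8) in the diabetic library, a ratio of 2.48 (2.34 to 2.62). The level was higher in the diabetic library in every epithelial label, with intervals that did not overlap. Of the 13846 genes measured over all cells, 153 had a larger ratio.

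In LSC cells S100a4 was at 13.3 CPM in the control and 33.9 CPM in the diabetic library, a ratio of 2.55 (1.70 to 3.93). In Basal cells it was at 16.7 and 33.7 CPM, a ratio of 2.02 (1.82 to 2.24). In TAC1 cells it was at 13.8 and 33.9 CPM, a ratio of 2.46 (2.14 to 2.83). The intervals of these labels overlapped in control, and their diabetic levels were close to each other. In TAC2 cells it was at 18.6 and 38.6 CPM, a ratio of 2.07 (1.78 to 2.41), and in Wing cells at 6.10 and 14.7 CPM, a ratio of 2.41 (2.14 to 2.70). In Squam cells it was at 3.08 and 5.56 CPM, a ratio of 1.81 (1.42 to 2.30), and in Conj cells at 4.95 and 13.5 CPM, a ratio of 2.73 (2.00 to 3.79). S100a4 thus had the reverse order to most of the family, highest in the proliferating and deep labels and lowest at the surface. TAC2, Basal, TAC1 and LSC were not apart from their neighbours in both libraries, all were above Wing and Conj, and Squam was lowest. TAC2 exceeded Squam 6.06-fold in control and 6.94-fold in diabetic cells. The genes with a larger diabetic over control ratio numbered between 25 of 9319 in Conj and 118 of 11526 in Basal.

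The difference in S100a4 was spread over many cells. In Basal cells 50% of its counts lay in 164 control and 204 diabetic cells, and the richest cell held 6 and 8 counts. With each cell thinned to 5000 UMIs, 7.65% of control (6.61 to 8.80) and 14.7% of diabetic Basal cells (13.3 to 16.2) had a UMI, against 17.1% and 32.2% without thinning. Thinned shares were 6.56% and 14.5% in TAC1, 10.6% and 17.2% in TAC2, 2.92% and 6.39% in Wing, and 2.65% and 7.67% in Conj, all with intervals apart. In LSC (8.88% and 14.6%) and Squam (1.10% and 2.37%) the intervals overlapped. None of the labels is known to lack S100a4, and the Squam share, the lowest at equal depth, is the nearest to a background. Over all cells the ratio was 2.16 with thinned cells and 2.22 with the same label weights in both libraries.

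Markers of cells known for S100a4 were measured beside it. Of 6 fibroblast and keratocyte markers 1 was analysed here, Dcn, which had 44 counts in control and 204 in diabetic cells (0.224 and 1.19 CPM). In LSC cells Dcn was at 13.3 and 23.7 CPM, and in Squam and Conj cells, where the S100a4 ratios were 1.81 and 2.73, it was at 0 counts. Without the 35 control and 92 diabetic cells with a Dcn UMI the S100a4 ratio over all cells was 2.48. The 7 immune markers summed to 4468 control and 2146 diabetic counts (22.8 and 12.5 CPM). All 5 with enough counts were called lower, where 2.80% of all genes measured were. The 26 control and 10 diabetic Immune cells held 4008 and 2100 of these counts. Without Immune cells the S100a4 ratio was 2.48. In Immune cells S100a4 had 12 counts in each library, from 3 control cells and 1 diabetic cell. The limbal gene Gpha2 was also called higher in the diabetic library in 6 of the 7 epithelial labels, with ratios of 2.21 in Basal, 2.24 in TAC1, 2.26 in TAC2, 1.98 in Wing, 1.74 in Squam and 2.01 in Conj cells, while in LSC cells its ratio was 0.713. All 3 limbal markers (Gpha2, Ifitm3 and Apoe) were called higher over all cells, where 5.98% of all genes measured were. They summed to 258 and 457 CPM. In Squam 1 of them was called lower, where 7.75% of the genes measured were. The LSC label was carried by 2.10% of the control and 4.04% of the diabetic cells. The part of these differences in the S100a4 values was not tested. S100a4 shares exon sequence on the same strand with Gm42674, a read-through gene with no row in the count matrix. How shared reads were assigned is uncertain.

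**Figure D2:**
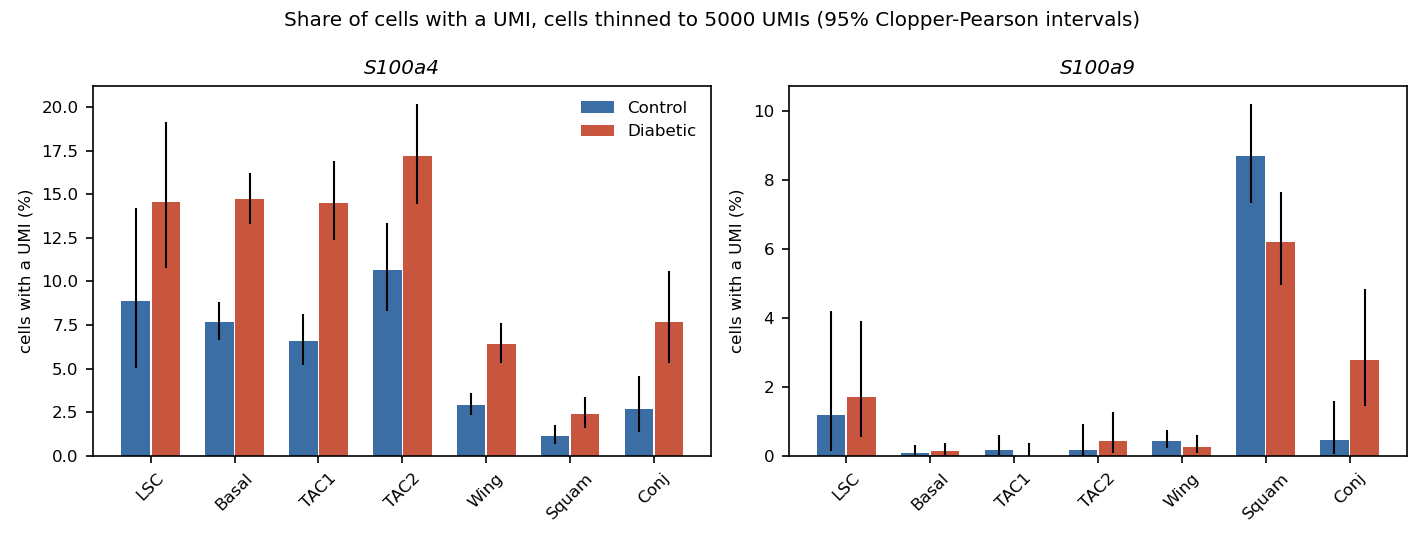
Share of cells with at least 1 UMI of S100a4 (left) or S100a9 (right) in each epithelial label (%), cells thinned to 5000 UMIs, with 95% Clopper-Pearson intervals; blue is control and red diabetic. S100a4 was found in 7.65% of control and 14.7% of diabetic Basal cells, and S100a9 in 8.70% and 6.19% of Squam cells.

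S100a9, the larger subunit of calprotectin, was a gene of a few surface cells. It had 3668 control and 3297 diabetic counts, or 18.7 CPM (18.1 to 19.3) and 19.3 CPM (18.6 to 19.9), and the ratio of 1.03 had an interval from 0.984 to 1.08 and was 0.988 with median-of-ratios scaling. Squam cells held 3512 and 2964 of these counts, at 96.9 CPM (93.5 to 100.5) in the diabetic library against an interval of 87.1 to 93.1 CPM in control. The Squam ratio of 1.08 (1.02 to 1.13) was 0.866 without likely doublets. Of the Squam cells 254 of 1587 control and 170 of 1347 diabetic ones had a UMI of S100a9, and after thinning 8.70% (7.34 to 10.2) and 6.19% (4.95 to 7.64) did, with overlapping intervals. In Squam cells 50% of the counts lay in 14 control and 9 diabetic cells, and the 10% of cells with the most held 97.3% and 98.8%. The richest single Squam cell had 315 counts in control and 336 in diabetic. In Basal cells, which should lack surface genes, S100a9 was found in 0.399% and 0.210% of cells without thinning, at medians of 13146 and 14438.5 UMIs. Its Basal level was 0.422% and 0.153% of the Squam level, beside 0.276% and 0.0951% for Psca.

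S100a9 was called higher in LSC, TAC2 and Conj cells of the diabetic library, but on few cells. LSC cells had 14 control and 134 diabetic counts, 6.43 CPM (3.51 to 10.8) and 29.1 CPM (24.4 to 34.5), a ratio of 4.53 (2.61 to 8.51). Of the 134 diabetic counts 103 came from 1 cell and 21 from another. TAC2 cells had 7 and 51 counts, 0.543 and 2.88 CPM, a ratio of 5.31 (2.40 to 13.9), and 39 of the 51 came from 1 cell of 78246 UMIs. Without the richest cell of each library both ratios were 2.92, from 36 and 15 counts in all, which is under the minimum for a call. Without cells of 50000 UMIs or more the TAC2 ratio was 1.27, from 16 counts.

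Conj cells had 24 and 98 counts, 2.16 CPM (1.38 to 3.21) and 8.78 CPM (7.13 to 10.7), a ratio of 4.07 (2.58 to 6.65). The richest diabetic Conj cell held 41 counts, and without the richest cells the ratio was 3.13 from 75 counts, still past the rule. UMIs were in 16 of 465 control (3.44%) and 41 of 440 diabetic Conj cells (9.32%), and in 0.442% (0.0536 to 1.59) and 2.79% (1.45 to 4.82) after thinning. The S100a9 level in Conj was 2.40% and 9.06% of that in Squam, where Psca stood at 7.93% and 9.38%. Surface markers were higher in diabetic Conj cells too: the 4 listed summed to 2529 and 4081 CPM, with Psca (ratio 1.66) and Sprr1a (2.27) called higher and 0 called lower. Of all genes measured in Conj cells, 2.52% were called higher and 1.95% lower. The part of the surface markers in the S100a9 difference was not tested. Wing cells went the other way, with 92 and 42 counts, 1.17 CPM (0.941 to 1.43) and 0.793 CPM (0.571 to 1.07), a ratio of 0.679 (0.460 to 0.988). The diabetic Wing level was 0.818% of the Squam level, beside 6.64% for Psca.

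**Figure D3:**
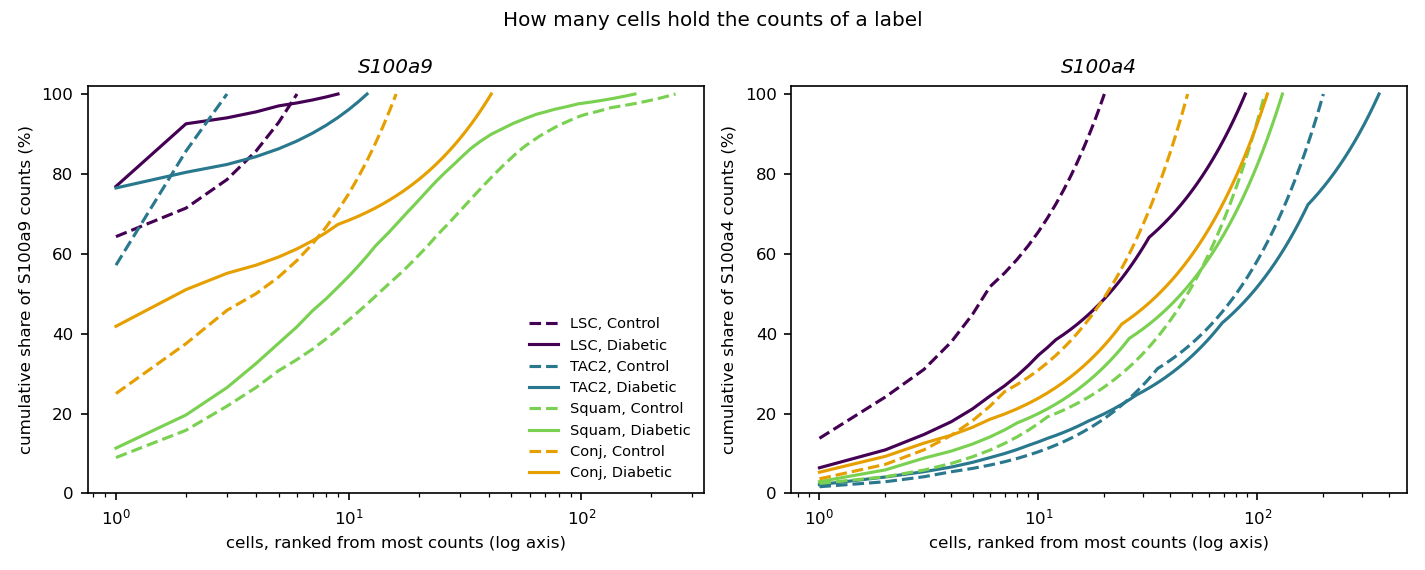
Cumulative share of the counts of S100a9 (left) and S100a4 (right) over cells with a count, ranked from the most counts (log axis), in LSC, TAC2, Squam and Conj cells; dashed lines are control and solid lines diabetic. The first diabetic LSC cell holds 103 of 134 S100a9 counts, while the first S100a4 cells hold few.

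Outside Squam, 5 cells had 10 or more S100a9 UMIs, and 4 of them were diabetic. The LSC cell with 103 S100a9 UMIs also had 23 UMIs of Lcn2, which encodes lipocalin, an iron-binding antimicrobial protein, and 0 of the surface marker Psca. The second LSC cell had 21 S100a9, 2 Lcn2 and 1 Psca UMIs. The TAC2 cell had 39 S100a9, 16 S100a8 and 20 Lcn2 UMIs, and the Conj cell 41 S100a9 and 29 Lcn2 UMIs. The control cell was a Wing cell with 11 S100a9, 0 Lcn2 and 618 Psca UMIs. Lcn2 over all LSC cells was at 11.5 and 35.2 CPM. These cells were picked by their S100a9 counts, so the values describe them only.

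S100a8, the smaller calprotectin subunit, was near the detection limit. It had 79 control and 99 diabetic counts, 0.402 CPM (0.319 to 0.501) and 0.579 CPM (0.470 to 0.705), a ratio of 1.44 that was not called. Without the richest cell of each library the ratio was 1.16, and with thinned cells 0.689 from 24 counts. Squam cells held 57 and 65 counts, 24 of the 65 in 1 cell. In Basal cells S100a8 had 0 counts in both libraries, which allows up to 0.0949 and 0.0888 CPM. Within Squam, S100a9 UMIs were present in 16 of the 37 control and 10 of the 28 diabetic cells with an S100a8 UMI (43.2% and 35.7%), beside 254 of all 1587 and 170 of all 1347 Squam cells. In Wing cells they were present in 1 of 10 and 0 of 6.

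The neutrophil markers other than this pair were scarce or belonged to surface cells. Of 14 listed, 6 were analysed here, and the list summed to 77.9 and 60.4 CPM over all cells. Of these, Ly6g (5 and 0 counts), Cxcr2 (0 and 5) and Mmp9 (5 and 0) were at or near 0. The other 3 were Itgam, an integrin, with 12379 and 8233 counts, Ltf, lactoferrin, with 2132 and 1230, and Il1r2, a decoy interleukin receptor, with 778 and 860. The summed list was at 325 and 276 CPM in Squam, at 7.34 and 4.56 CPM in LSC and at 2.95 and 1.81 CPM in TAC2. In Conj it was at 105.2 and 118.9 CPM, where Ltf was called higher (4.95 and 8.87 CPM, ratio 1.79) and Ly6g, Cxcr2 and Mmp9 had 0 counts. Immune cells had 0 counts of S100a8 and S100a9, which allows up to 31.2 CPM in control and 95.5 CPM in diabetic Immune cells.

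S100a6, S100a10 and S100a11 are the annexin-binding members. S100a6, calcyclin, binds annexins and the ubiquitin ligase adaptor Cacybp. S100a10, also called p11, has lost calcium binding and joins annexin A2 at the membrane, and S100a11, calgizzarin, binds annexin A1. All had large counts and were higher in the surface than in the deep labels. The Squam level over the Basal level was 3.34-fold in control and 2.62-fold in diabetic cells for S100a6, 6.97-fold and 6.80-fold for S100a10, and 3.42-fold and 3.06-fold for S100a11.

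S100a6 was at 29113 CPM in the control and 26555 CPM in the diabetic library, a ratio of 0.912 (0.911 to 0.913). The direction differed by label. The diabetic level was higher in Basal (14899.8 and 17207 CPM, ratio 1.15), TAC1 (14318 and 16642, ratio 1.16) and TAC2 (13545 and 15062, ratio 1.11). It was lower in Wing (28301 and 26258, ratio 0.928), Squam (49791 and 45047, ratio 0.905) and Conj (50321 and 44829.6, ratio 0.891), and in LSC the ratio of 0.981 was 1.01 with median-of-ratios scaling. The step between deep and surface labels was therefore smaller in the diabetic library. Such intervals are narrow because the counts are large, and no member of this group passed the fold of 1.5 in an epithelial label. Conj was highest in control and Squam in the diabetic library, and below them stood Wing, LSC, Basal, TAC1 and TAC2 in that order.

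S100a10 was at 3883 CPM in the control and 3263 CPM in the diabetic library, a ratio of 0.840. It was higher in diabetic LSC cells, at 983 CPM (942 to 1025) and 1353 CPM (1319 to 1387), a ratio of 1.38 (1.31 to 1.45), and in Conj cells, at 5571 and 6016 CPM, a ratio of 1.08. In the other 5 epithelial labels its ratio lay between 0.826 in Wing and 0.922 in TAC2. Its lowest level was in LSC in control and in TAC1 in diabetic cells, and its highest in Squam, at 9774 and 8719.8 CPM. S100a11 was at 3536 and 3253 CPM, a ratio of 0.920, with label ratios from 0.906 in Wing to 1.10 in TAC1. Its highest level was in Squam, at 6719 and 6301 CPM, and its lowest in TAC1, at 1684 and 1855 CPM. In the diabetic library the interval of TAC1 overlapped that of TAC2, at 1868 CPM. With the same label weights in both libraries the ratios were 0.959 for S100a6, 0.897 for S100a10 and 0.959 for S100a11.

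**Figure D4:**
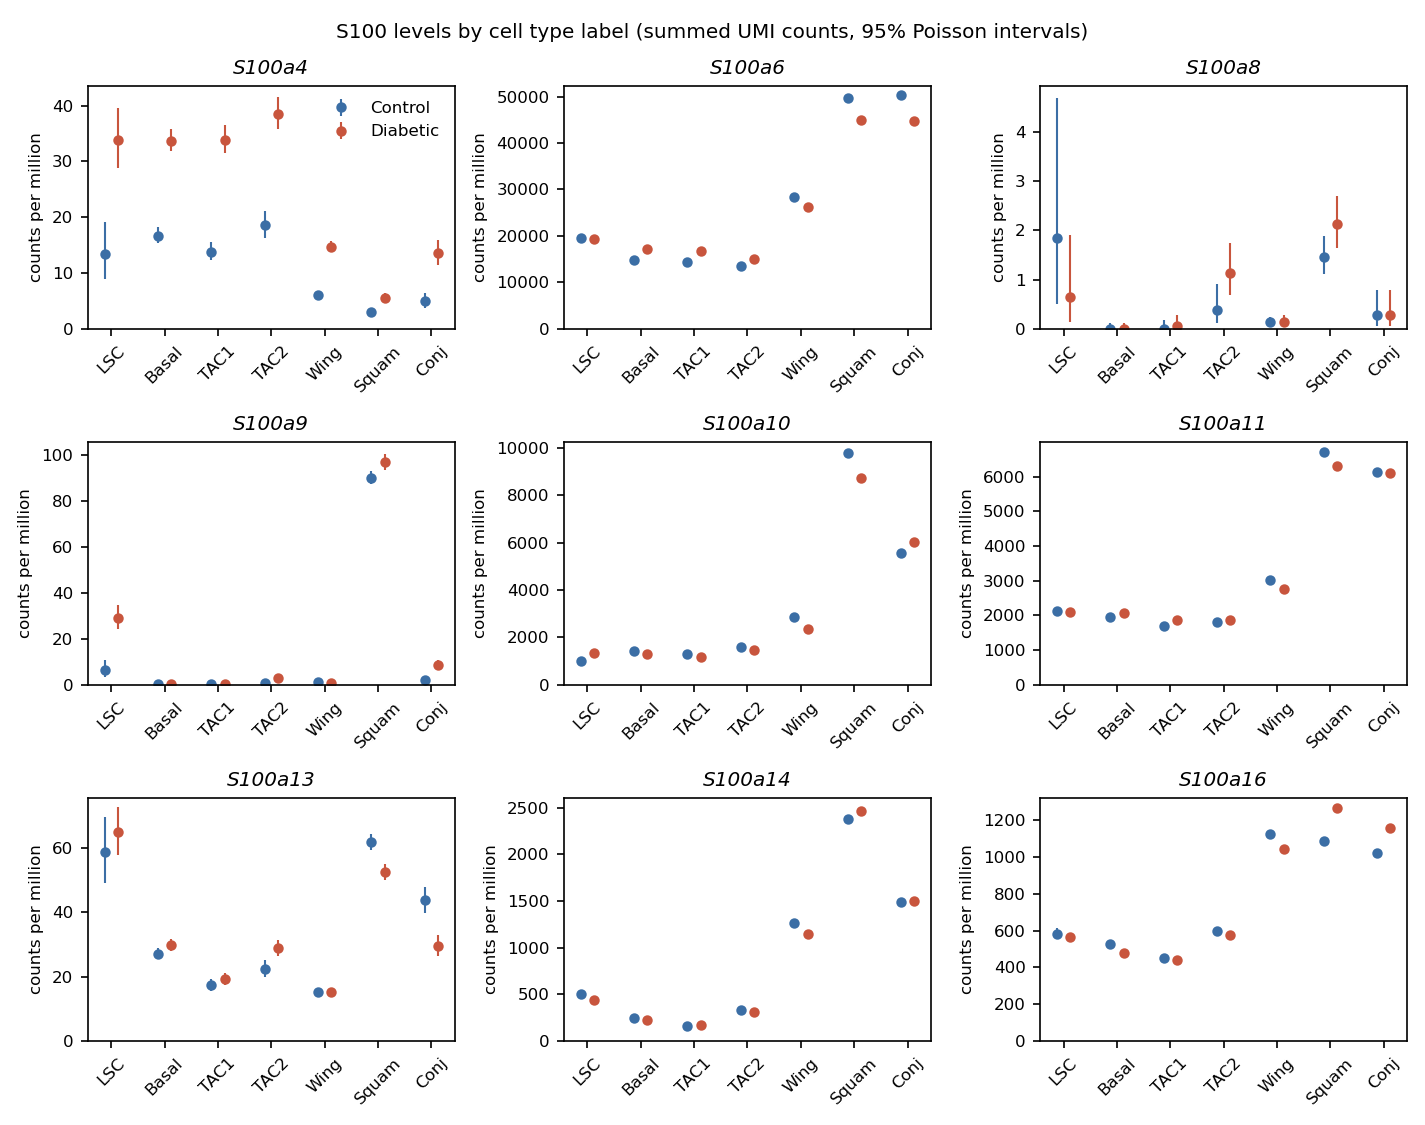
Level of each member (CPM of summed counts) in the 7 epithelial labels of the control (blue) and diabetic (red) library, with 95% Poisson intervals; each panel has its own scale. S100a6, S100a10, S100a11, S100a14 and S100a16 are higher in Wing, Squam and Conj than in Basal, S100a4 is lowest in Squam, and S100a9 is highest in Squam.

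Within Wing and Conj cells these members varied together from cell to cell. At 5000 UMIs per cell, the Spearman correlation of S100a6 with S100a10 over Wing cells was 0.79 in control (2773 cells) and 0.77 in diabetic cells (1909 cells), and that of S100a6 with S100a11 was 0.65 and 0.67. S100a10 with its partner Anxa2 gave 0.61 and 0.62, and S100a11 with Anxa2 gave 0.51 and 0.55. S100a11 with its partner Anxa1 gave −0.03 and 0.11. In Conj cells S100a6 gave 0.59 and 0.69 with S100a10, and 0.54 and 0.61 with S100a11. S100a10 there gave 0.67 and 0.72 with S100a11, and 0.56 and 0.58 with Anxa2. In Basal cells S100a6 with S100a10 gave 0.08 and 0.17, and S100a10 with Anxa2 gave 0.03 and 0.02. In Squam cells S100a10 with Anxa2 gave 0.09 and 0.19, and S100a11 with Anxa1 gave −0.31 and −0.21. There S100a10 with S100a11 gave 0.56 and 0.54, while S100a10 with Ahnak, a scaffold protein that binds the S100a10 complex, gave −0.58 and −0.46. S100a10 with Ahnak was negative in Conj cells too, at −0.42 and −0.52. These are descriptions over cells of 1 library that share its depth. The Wing label spans a wide range of these genes: S100a6 ran from 47 to 225 UMIs over control Wing cells, leaving out the 10% of cells at each end, and from 45 to 234 in diabetic ones. In Squam cells the range was 152 to 335 and 137 to 300.

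**Figure D5:**
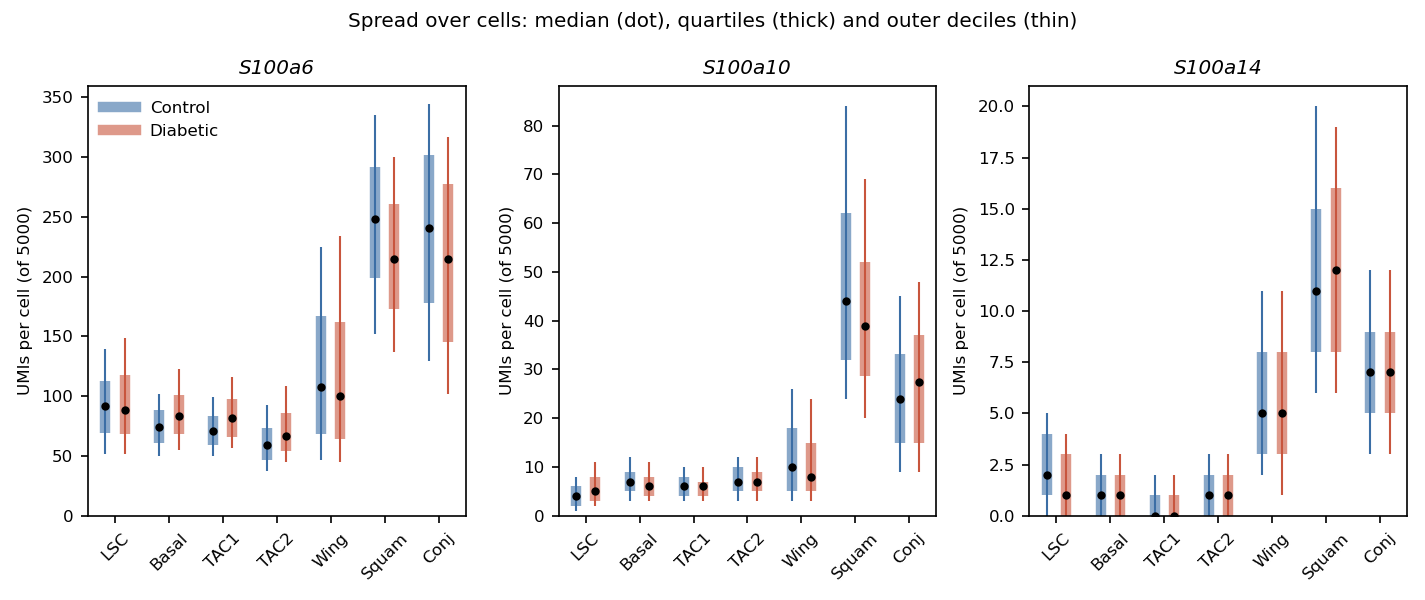
UMIs per cell of S100a6, S100a10 and S100a14 after thinning to 5000 UMIs, by label and library; dots are medians, thick bars quartiles and thin lines the range without the 10% of cells at each end. The range of S100a6 is widest relative to its median in Wing cells, from 47 to 225 UMIs in control.

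S100a13, S100a14 and S100a16 complete the members. S100a13 takes part in the release of Fgf1 and Il1a, which lack a secretion signal. S100a14 is made mainly by epithelia and binds calcium weakly, and S100a16 is broadly expressed. S100a14 had the largest step between layers of these 3, from 241 and 226 CPM in control and diabetic Basal cells to 2378 and 2471 CPM in Squam, 9.87-fold in control. Over all cells it was at 1146 and 1002 CPM, a ratio of 0.874 that was 0.973 with the same label weights, and its label ratios ran from 0.876 in LSC to 1.05 in TAC1.

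S100a16 was at 905 and 846 CPM over all cells, a ratio of 0.935. It was higher in diabetic Squam (1086 and 1266 CPM, ratio 1.17) and Conj cells (1019 and 1158 CPM, ratio 1.14), and lower in Basal cells (529 and 477 CPM, ratio 0.900). Its Squam level was 2.05-fold the Basal level in control and 2.66-fold in diabetic cells. The other labels had ratios between 0.924 and 0.970.

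S100a13 had another pattern, highest in Squam in control (62.0 CPM, beside 58.8 CPM in LSC, with overlapping intervals) and in LSC in diabetic cells (64.9 CPM, beside 52.5 CPM in Squam, with intervals apart), and lowest in Wing (15.2 and 15.3 CPM) and TAC1 (17.3 and 19.1 CPM). Its overall level was 29.3 CPM (28.5 to 30.0) in control and 29.0 CPM (28.2 to 29.8) in diabetic cells. In Conj cells it was at 43.7 CPM (39.9 to 47.8) and 29.5 CPM (26.4 to 32.9), a ratio of 0.674 (0.584 to 0.777), or 1.48-fold lower, just inside the limit of 1.5. In TAC2 cells the ratio was 1.28 (1.11 to 1.49). Over the 14 sums of a label and a library, S100a13 correlated with its head-to-head neighbour S100a1 at a Pearson r of 0.86 on log2(CPM + 10). The values of S100a1 with some other members were not far below this, at 0.83 with S100a9, 0.77 with S100a6, 0.76 with S100a11 and 0.74 with S100a14. They were 0.73 with S100a8, 0.67 with S100a10, 0.58 with S100a16 and −0.57 with S100a4. S100a1 was at 65.6 and 58.0 CPM in control and diabetic LSC cells and at 81.2 and 82.8 CPM in Squam cells.

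Over the same 14 sums, which share their libraries and labels, S100a6 and S100a11 correlated at 0.98, S100a10 and S100a11 at 0.97, and S100a14 and S100a16 at 0.97. S100a4 had negative values with each of the other 8 members, from −0.77 with S100a14 to −0.20 with S100a13. Among 6777 genes, the patterns most like S100a4 were those of Erlec1 (0.95), Ppp4r3a and Wdr45b (both 0.91). Those most like S100a9 were Pptc7 (0.98), Mapk6 and Lyn (both 0.97). S100a6 was nearest to Btbd3 (0.99), S100a11 and Anxa11 (both 0.98), and S100a10 to Arpc5, Rassf7 and Tmc4 (all 0.99). S100a11 was nearest to Dram2, Ift22 and Ifi204 (all 0.99), and S100a14 to Mxd1, Metrnl and the keratin Krt80 (all 0.99). S100a16 was nearest to Actn4, Pcyt1a and Pea15a (all 0.99), and S100a13 to Rgmb (0.90), Ece1 and Map7 (both 0.89). S100a8 reached at most 2.13 CPM in any sum, so its nearest genes, Sppl2a, Sec62 and Tox4 (0.86 to 0.89), say little.

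In Immune cells S100a6 had 570 control and 39 diabetic counts, a ratio of 0.209 (0.147 to 0.290), and S100a11 had 104 and 14 counts, a ratio of 0.412 (0.218 to 0.723). Both were called lower, where 10.5% of the 295 genes measured in Immune cells were called higher and 13.6% lower. Of the 570 control counts of S100a6, 234 came from 1 cell and 201 from another. Krt12 was also lower there, with 712 and 24 counts, and its part in these values was not tested. S100a14 and S100a16 had 0 counts in the diabetic Immune cells.

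Of the other S100 genes, 8 of 9 listed were analysed here and 5 had enough counts, of which 0 were called higher and 1 lower. Of all genes measured, 5.98% were called higher and 2.80% lower. The gene called lower was S100z, with 110 and 48 counts (0.560 and 0.281 CPM), a ratio of 0.501 (0.349 to 0.709). S100a1, best known from heart muscle, was at 47.2 and 46.8 CPM, and S100a7a, a relative of human psoriasin, at 86.7 CPM in both libraries. S100a7a was highest in Squam, at 418 and 467 CPM. S100a3, a hair follicle gene, was at 19.6 and 13.9 CPM, a ratio of 0.709, and was called lower in Squam cells, at 24.5 and 14.7 CPM. Its end lies 1068 bases before S100a4, and the ratios of these neighbours went opposite ways. S100a5, S100b and S100g had 0 control counts and 3 or 4 diabetic counts. The median log2 ratio of the 5 genes was −0.09, beside 0.07 for all genes. Of 7 fused S100 genes, large proteins of the cornified layer, 3 were analysed here and 1 had enough counts, Tchh, at 1.35 and 1.36 CPM.

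The partners of S100 proteins stayed mostly inside the fold of 1.5. Of 14 partners 13 had enough counts, 1 was called higher and 1 lower, with a median log2 ratio of −0.01. The shares over all genes measured were 5.98% higher and 2.80% lower. S100pbp, which binds S100 proteins, was at 5.27 and 8.30 CPM, a ratio of 1.58 (1.45 to 1.71). Anxa6 was at 20.0 and 13.2 CPM, a ratio of 0.659 (0.625 to 0.694). Anxa2, the partner of S100a10, was at 3021 and 2603 CPM, a ratio of 0.862, beside 0.840 for S100a10 itself. Anxa1, the partner of S100a11, was at 1058 and 1120 CPM, Ahnak at 864 and 829 CPM, and Myh9, the myosin that S100a4 binds, at 92.4 and 102.1 CPM, a ratio of 1.10.

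Among 7 receptors 4 had enough counts, and 0 were called in either direction, with a median log2 ratio of −0.01. Bsg, basigin, a receptor for S100a9 in human cells, was at 338 and 319 CPM, Alcam at 124 and 122 CPM, Nptn at 65.6 and 69.9 CPM, and Tlr4 at 5.07 and 5.06 CPM. Ager, the gene of RAGE, had 18 and 27 counts. Of 15 antimicrobial and alarmin genes 11 were analysed here and 10 had enough counts. Of these 1 was called higher, Il33, an alarmin cytokine, at 2.81 and 4.21 CPM. Another 4 were called lower: Slpi, a protease inhibitor, at 16.2 and 8.51 CPM, Il18 at 157 and 103 CPM, Ltf at 10.9 and 7.19 CPM, and Defb14 at 2.54 and 1.58 CPM. The median log2 ratio of the list was −0.25, and the shares called over all genes measured were 5.98% higher and 2.80% lower. Lcn2 was at 2.12 and 2.37 CPM over all cells, and at 9.48 and 4.90 CPM in control and diabetic Squam cells, a ratio of 0.517.

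Of 13 other calcium-binding genes 12 had enough counts, 0 were called higher and 0 lower, with a median log2 ratio of −0.17. Among all genes measured 5.98% were called higher and 2.80% lower. Calml3, an epithelial calcium sensor, was at 3983 and 2897 CPM, a ratio of 0.727. Sri, sorcin, was at 351 and 243 CPM, a ratio of 0.693. Capns1, the small calpain subunit, was at 607 and 588 CPM.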

How the data were processed

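Whole UMI counts were deposited for 17492 genes in 17808 cells, without normalization. A second table the authors deposited gives the group and label of every cell. The layout coordinates that the authors deposited there, a score with no unit, were not used. The submitters' processing notes name Cell Ranger 5.0.0, Seurat 4 and mm10 but no roles. No source used here states a filter on cells, and the lowest total was 520 UMIs.

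Summing was done per library, or per library and label, and each sum was scaled to its own total (CPM). Intervals were exact at 95%: Poisson for CPM, conditional binomial for ratios, Clopper-Pearson for shares, all of counting error only. For a count of 0 the stated limit is a fixed 3 counts, smaller than the Poisson interval used elsewhere. For S100a8 in control Basal cells that interval reaches 0.117 CPM. Doublets were scored with Scrublet, and the top 8% of each library (791 control and 683 diabetic cells) were left out as an alternative. Shares and correlations used cells thinned to 5000 UMIs, without shallower cells.

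The text names all members, list genes past the rule, up to 4 more list genes of the highest level, and the 3 genes most like each member among those reaching 20 CPM. Members and lists were chosen with earlier results of these data known. Named genes outside this rule (S100a3, S100a5, S100b, S100g, Ager, Lcn2, Myh9 and markers) were chosen after their values were seen. Tools were scanpy 1.11.5, pandas 2.3.3, scipy 1.17.1, numpy 2.4.6, matplotlib 3.10.9 and Python 3.11.15.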

Additional observations from a re-analysis of the deposited data

Results flagged for a closer look

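The diabetic over control ratio of 6 members lay above 1.1 in one epithelial label and below its inverse in another, with counting intervals apart from 1, and none of these differences between labels was tested, since each label had 1 library per group. S100a6 had a ratio of 1.16 in TAC1 and 0.891 in Conj cells. S100a9 had 5.31 in TAC2 and 0.679 in Wing cells, the first from 7 and 51 counts with 39 of them in 1 cell. S100a10 had 1.38 in LSC and 0.826 in Wing cells. S100a11 had 1.10 in TAC1 and 0.906 in Wing cells. S100a13 had 1.28 in TAC2 and 0.674 in Conj cells. S100a16 had 1.17 in Squam and 0.900 in Basal cells.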

How the results depend on the processing

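No paired analysis was possible because each group had 1 library. Over all cells, 1 member called higher and 0 lower held under every alternative run. The 10 combinations of a member and label called higher were 6 with a minimum of 200 summed counts and 5 with each cell thinned to 5000 UMIs. The 0 called lower were 1 with the smallest fold tried for a call (S100a13 in Conj) and 1 with median-of-ratios scaling (S100a13 in Conj, ratio 0.664). They were 2 with equal weight for every cell (S100a13 in Conj, 0.637, and S100a9 in Wing, 0.558). That setting and the same label weights called members on fold and minimum counts alone, without the condition of intervals apart. Under the other alternatives the count called higher was between 8 and 12. The causes were not tested. The S100a4 ratio stayed between 2.16 and 2.48 over all cells and between 1.80 and 2.88 in the 7 labels. The S100a9 ratio over all cells ran from 0.903 to 1.13, on both sides of 1, and its ratios in the labels ran from 0.182 (Wing, thinned cells, 18 counts) to 7.96 (TAC2 without likely doublets, 48 counts). Median-of-ratios scaling moved log2 ratios by −0.06 over all cells. Removal of Immune cells, of cells with a Dcn UMI, of cells of 50000 UMIs or more and of the richest cell was chosen after seeing the data. Animals, dissection and library preparation cannot be told apart from diabetes, and S100a8 is limited by its 178 counts.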
